A study of Mus musculus with 6 samples.

Results

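The 40 genes described here are the heterogeneous nuclear ribonucleoproteins (hnRNPs) and other regulators of alternative splicing, chosen by symbol from a fixed list of names, with no measured value in the rule. Earlier results of these data were known when the list was chosen. All 40 were found once each among the 46072 gene entries of every library, and all 40 passed the filter on low counts. They comprise 24 genes of the hnRNP families, with the PTB and PCBP proteins counted among these, and 16 other regulators from the TRA2, CELF, MBNL, RBFOX, ESRP, STAR, TIA1, ELAVL, TDP-43 and RBM families.

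Proteins of the hnRNP families coat nascent transcripts and bind short sequence motifs through RRM, KH or RGG domains. Bound in or near an exon, many of them block its inclusion and oppose the SR proteins, while others promote it according to position. CELF and MBNL proteins act against each other on shared exons, and PTBP1 holds down productive splicing of its paralog PTBP2 by promoting the skipping of one of its exons.

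The libraries were made from mouse embryos at the 4-cell stage. Of the 6 libraries, 3 were labelled control and 3 had received siRNA against Son, injected at the zygote stage to lower this nuclear speckle protein, which binds RNA and acts in splicing. The strain, the number of embryos in a library and the content of the control injection were not stated by the labels, nor is it known from them whether the libraries came from separate litters. The p-values therefore measure only the spread between these libraries, which may be technical.

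Total estimated counts ranged from 104634855 to 118865650 units per library, and values are given as CPM, each count divided by its library's total after TMM scaling for library composition. Son had 249, 322 and 332 CPM in controls 1 to 3 and 41, 28.0 and 25.1 CPM in siRNA libraries 1 to 3, with no overlap (log2 fold change -3.26, SE 0.272, edgeR adjusted p = 0.00991). The embryo and oocyte markers were all detected, with a summed level of 644 to 1241 CPM in controls and 887 to 1237 CPM after siRNA, most of it Dppa3. Single markers differed: oocyte genes Oosp1, Gdf9 and Zp3 lay above all controls, at 4.10, 2.30 and 1.58 of the control level by the fitted fold, while Pou5f1, which encodes OCT4, lay below them at 0.284. Of the 8 markers none passed edgeR's adjusted threshold, and DESeq2 called Oosp1 (adjusted p = 0.000675) and Pou5f1 (adjusted p = 0.0368). The part of these markers in the members' values was not tested. Markers of cumulus cells summed to 0.926 to 2.27 CPM in controls and 0.778 to 1.88 CPM after siRNA, with Foxl2, Inha and Fshr at 0 in all libraries. Sperm markers summed to at most 1.14 CPM in any library, with Tnp2 and Odf1 at 0. Blood markers summed to 6.02 to 12.1 CPM in controls and 9.74 to 11 CPM after siRNA, nearly all from Hba-a1, whose groups overlapped, and Hba-a2, which had 2.22, 1.72 and 2.36 CPM in controls and 3.70, 3.86 and 3.42 CPM after siRNA, while Hbb-bs, Hbb-bt and Ptprc were at 0.

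The comparison asked how the RNA of these regulators differed between embryos with and without Son siRNA. Several hnRNP transcripts, among them the 3 highest per kilobase, were lower after siRNA. Hnrnpa1, Hnrnpa2b1, Hnrnpc, Hnrnph1 and Hnrnpdl had 0.490 to 0.590 of the control level by the fitted fold with TMM scaling. Their log2 fold changes were -1.03 to -0.76 with TMM scaling and -0.69 to -0.46 with total-count scaling, where the groups of Hnrnpa2b1 overlapped. Mbnl2, which was scarce, had 0.165 of the control level. Ptbp2 and Hnrnpul2 were higher, at 2.20 and 1.79 of the control level, and most of the remaining regulators lay close to their control values. No single member passed edgeR's threshold over all genes, however.

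The 17788 genes that passed the filter were tested together in edgeR (quasi-likelihood, p-values adjusted by Benjamini-Hochberg). At an adjusted p under 0.05, 0 of the 40 members were called, while 0.989% of all genes were called, 0.899% lower and 0.0899% higher. At an unadjusted p under 0.05 there were 9 members (22.5%), against 14.7% of all genes. Of these, 7 were lower (17.5%, against 8.86% of all genes) and 2 were higher (5.0%, against 5.88%). DESeq2's Wald test called 7 members (17.5%, against 6.90% of all genes): Hnrnpa1, Hnrnpa2b1, Hnrnpc, Hnrnpdl, Hnrnph1 and Mbnl2 lower (4.63% of all genes) and Ptbp2 higher (2.28%).

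The siRNA libraries all lay below the controls for 14 members (35.0%) and all above them for 3 (7.50%), while the shares over all genes tested were 11.6% and 12.1%. The median log2 fold change was -0.18 over the members and 0.02 over all genes tested. Of the 40 members, 26 (65.0%) were below 0, against 48.7% of all genes. The shares over all genes here and above are not matched for level. Of the 17788 genes tested, 14060 had a mean under 30 CPM, as did only 9 members. All genes below 0 rose from 44.9% at that level to 82.0% at 300 CPM or more. Those lower without overlap rose from 8.98% to 36.9%. With total-count scaling, which shifted the median of all genes by 0.29 on the log2 scale, the members' median was 0.11, or -0.20 relative to all genes (with TMM -0.21). In that scaling 5 members lay below the controls without overlap and 6 above, against 6.22% and 18.8% of all genes, and 14 of the 40 were below 0. The 5 were Hnrnpa1, Hnrnpc, Hnrnpdl, Hnrnph1 and Mbnl2. The 6 were Ptbp2, Hnrnpul2, Celf1, Mbnl1, Tia1 and Elavl1, of which Celf1, Tia1 and Elavl1 overlapped with TMM scaling. The groups of the other members given below as lower without overlap, Hnrnpa2b1 among them, overlapped with total-count scaling. The sign of Hnrnpk, Tra2b, Hnrnpab and Hnrnpr, given below as lower without overlap, turned in that scaling, to log2 fold changes of 0.02, 0.03, 0.10 and 0.07. All libraries hold whole embryos, so fewer cells carrying a transcript and less of it per cell cannot be told apart.

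**Figure D1:**
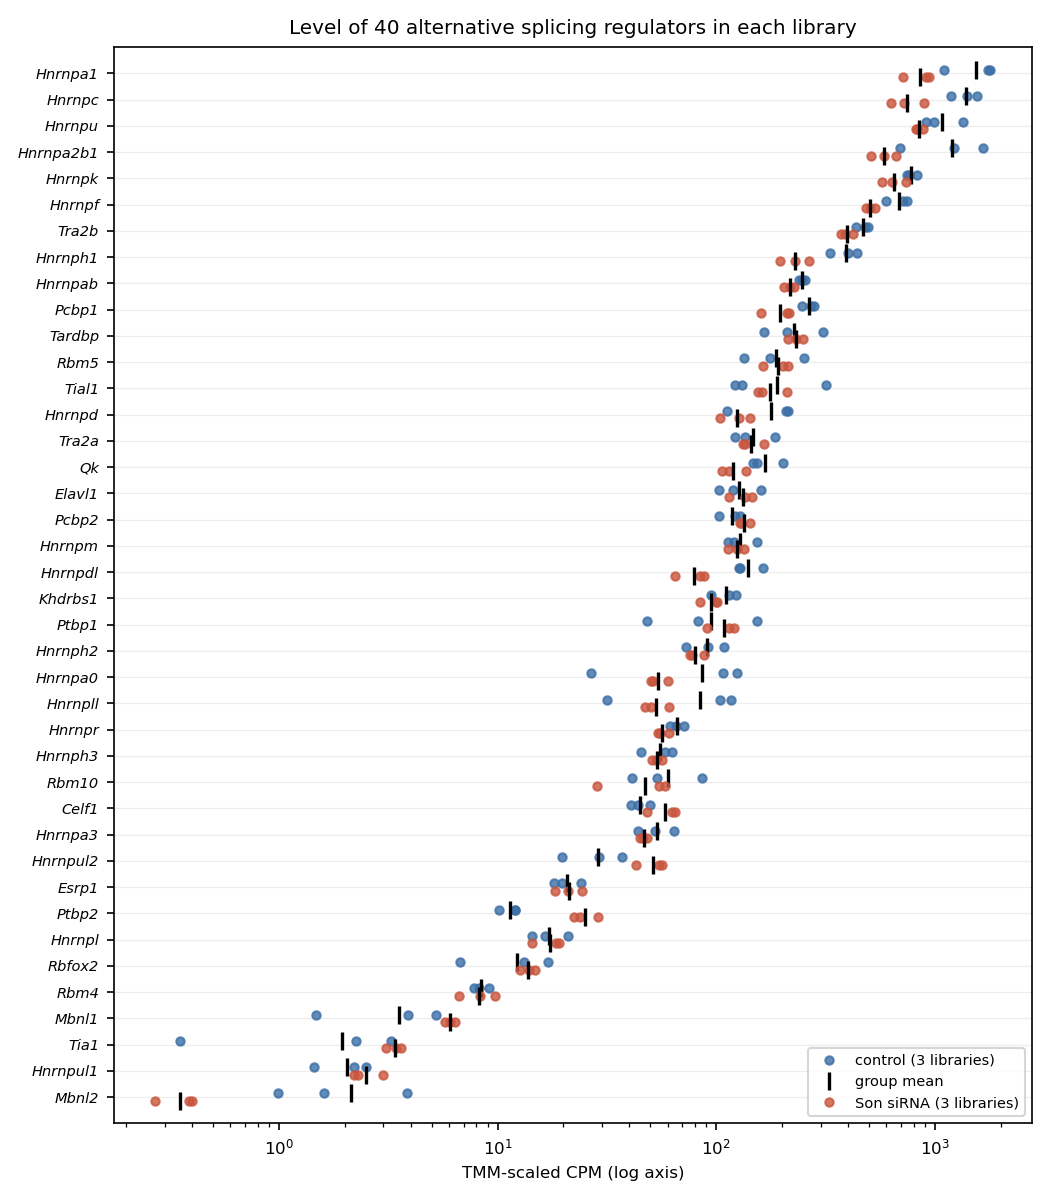
Level of each of the 40 regulators in the 3 control (blue) and 3 Son siRNA (red) libraries as TMM-scaled CPM on a log axis, with black ticks for group means and genes ordered by mean level. The siRNA libraries lie below all controls in each of the 8 genes with the highest mean level; with total-count scaling this holds for 3 of them.

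**Figure D2:**
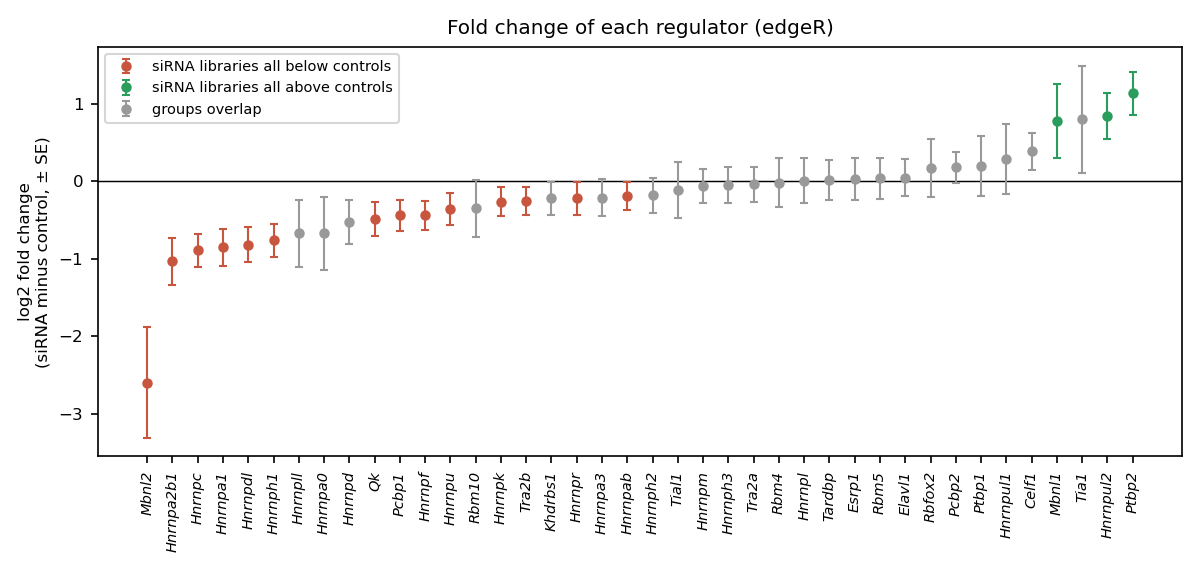
Log2 fold change (siRNA minus control) of each regulator with its standard error from edgeR, ordered from lowest to highest, with TMM scaling. Red and green points are genes whose groups do not overlap, 14 lower and 3 higher, and grey points are the 23 genes whose groups overlap.

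The hnRNP A/B proteins bind UAG-containing motifs and are the classic antagonists of SR proteins at splice sites. Per kilobase of transcript Hnrnpa1 and Hnrnpa2b1 were the highest of all members, with means of 690 and 539 CPM per kb over the 6 libraries. Hnrnpa1 (chromosome 15, 103240432 to 103246692, GRCm38) had 1744, 1096 and 1792 CPM in controls 1 to 3 and 712, 939 and 911 CPM in siRNA libraries 1 to 3. Each siRNA library lay below the lowest control, which was control 2. The log2 fold change was -0.85 (SE 0.240, adjusted p by edgeR = 0.135), and 25.9% of the 100-base stretches of Hnrnpa1 transcripts also occur in other genes, all of them pseudogenes.

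Hnrnpa2b1 (chromosome 6, 51460932 to 51469894) had 1657, 696 and 1225 CPM in controls and 508, 584 and 661 CPM after siRNA. Control 2 was again the lowest control and stood close to the highest siRNA library, although the groups did not overlap with TMM scaling. The log2 fold change was -1.03 (SE 0.303, adjusted p by edgeR = 0.151). With total-count scaling it was -0.69 and the groups overlapped. Without control 2 Hnrnpa1 and Hnrnpa2b1 had log2 fold changes of -1.05 and -1.30 and passed edgeR's threshold (adjusted p = 0.0444 and 0.036). Over the 15 alternatives the adjusted p ranged from 0.0408 to 0.475 for Hnrnpa1 and from 0.0358 to 0.482 for Hnrnpa2b1.

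The other A/B members differed less clearly. Hnrnpa0 had 124, 26.8 and 107 CPM in controls and 60.1, 50.4 and 51.5 CPM after siRNA, so that control 2 lay below and the other two controls above all siRNA libraries. Hnrnpab, a CBF-A-related A/B protein, had 247 ± 8.80 and 217 ± 11.7 CPM (SD, n = 3 each) without overlap, and 29.1% of its exonic bases overlap Phykpl. Hnrnpa3 had 53.6 ± 10.4 and 46.5 ± 1.65 CPM with overlapping groups, and 24 pseudogenes share stretches with it.

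The hnRNP C tetramer binds uridine tracts and packages nascent RNA. Hnrnpc (chromosome 14, 52073377 to 52104028) had 1566, 1181 and 1401 CPM in controls and 628, 891 and 721 CPM after siRNA. All siRNA libraries lay well below the lowest control. The log2 fold change was -0.89 (SE 0.211), with the smallest p of the members and an edgeR adjusted p of 0.0918 (0.0113 to 0.419 over the alternatives). Only 2.3% of its stretches occur elsewhere. Hnrnpr, another hnRNP gene, had 66.0 ± 4.93 and 56.7 ± 3.40 CPM, also without overlap but with a log2 fold change of -0.22.

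Within the D family, whose proteins bind AU-rich elements as well as pre-mRNA, Hnrnpdl (chromosome 5, 100033577 to 100039664) had 163, 128 and 127 CPM in controls and 64.7, 84.1 and 87.9 CPM after siRNA. The groups were clearly separate, with a log2 difference of -0.82 (SE 0.226, adjusted p by edgeR = 0.129). Hnrnpd, which encodes AUF1, had 209, 112 and 214 CPM and then 104, 142 and 127 CPM. Its control 2 lay among the siRNA libraries.

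The F/H proteins bind runs of G through quasi-RRM domains. Hnrnph1 (chromosome 11, 50376990 to 50386528) had 439, 333 and 400 CPM in controls and 230, 265 and 196 CPM after siRNA, with no overlap and a log2 difference of -0.76 (SE 0.211, adjusted p by edgeR = 0.132). Hnrnpf (chromosome 6, 117900324 to 117925622) had 600, 742 and 714 CPM and then 505, 483 and 532 CPM, also without overlap, with a smaller log2 fold change of -0.44 (SE 0.185, adjusted p by edgeR = 0.319). For Hnrnpf 49.4% of the stretches occur in other genes and 26.5% of exonic bases overlap other genes, so its value is uncertain. The X-linked paralog Hnrnph2 had 72.5, 91.4 and 109 CPM in controls and 75.7, 87.7 and 77.5 CPM after siRNA, with overlapping groups. Hnrnph3 overlapped as well, at 55.6 ± 9.09 and 53.5 ± 3.10 CPM (SD, n = 3 each).

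Hnrnpk and the PCBP proteins bind C-rich RNA through KH domains. Hnrnpk had 830, 748 and 758 CPM in controls and 571, 738 and 636 CPM after siRNA, which were lower in every library but by a narrow margin for siRNA library 2 (log2 -0.26, SE 0.188, edgeR adjusted p = 0.578). The single-exon gene Pcbp1 had 271, 279 and 246 CPM and then 210, 161 and 216 CPM, without overlap (log2 -0.44, edgeR adjusted p = 0.36). Pcbp2 had 122, 128 and 103 CPM and then 128, 130 and 143 CPM, which overlap, and 36.2% of its exonic bases overlap other genes, Map3k12 among them.

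In the PTB and hnRNP L families, which bind pyrimidine-rich and CA-rich RNA, the neuronal paralog Ptbp2 was the member with the largest higher value. Ptbp2 (chromosome 3, 119718742 to 119784466) had 12, 10.1 and 12 CPM in controls and 28.9, 23.8 and 22.4 CPM after siRNA. Its lowest siRNA library was well above the highest control, with a log2 difference of 1.14 (SE 0.276, adjusted p by edgeR = 0.0971, 0.00175 to 0.412 over the alternatives). DESeq2 called Ptbp2 in 5 of the 6 fits that left out 1 library, the exception being the fit without siRNA library 1. Of the other DESeq2 calls, Hnrnpc was called in 4 of the 6 fits, Mbnl2 in 3, Hnrnpdl and Hnrnph1 in 2 each, and Hnrnpa1 and Hnrnpa2b1 in 1 each. Between 3.12% and 13.1% of all genes were called in these fits.

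Ptbp1, which exceeded Ptbp2 per kilobase at 32.7 against 7.13 CPM per kb, varied widely in controls, with 48.2, 154 and 82.4 CPM. After siRNA it had 115, 90.5 and 121 CPM, inside the range of the controls, and 20.7% of its exonic bases overlap other genes. Hnrnpl had 17.2 ± 3.44 and 17.3 ± 2.60 CPM. Its paralog Hnrnpll, a regulator of CD45 exons in lymphocytes, had 117, 31.5 and 104 CPM in controls and 50.5, 60.9 and 47.2 CPM after siRNA, with control 2 again the lowest of all.

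Of the remaining hnRNPs, Hnrnpu, a nuclear scaffold protein also called SAF-A, had 992, 913 and 1340 CPM in controls and 883, 818 and 826 CPM after siRNA. The siRNA libraries lay below the controls, with a log2 difference of -0.36 (SE 0.205, adjusted p by edgeR = 0.47). With total-count scaling the groups of Hnrnpu overlapped and the log2 fold change was -0.04. The U-like gene Hnrnpul2 (chromosome 19, 8820010 to 8834143) had 19.7, 29.2 and 37.2 CPM and then 54.9, 56.6 and 42.8 CPM. Its groups did not overlap in the upward direction, with a log2 difference of 0.84 (SE 0.297, adjusted p by edgeR = 0.228). Hnrnpul1 was low, at 2.05 ± 0.542 and 2.5 ± 0.415 CPM, and Hnrnpm, which binds GU-rich RNA, was at 129 ± 22.2 and 124 ± 10.2 CPM.

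Promoter sequences are printed for the 7 members that DESeq2 called, so that the letters upstream of their starts can be compared. Of the 40 members, 35 had a promoter in the RefSeq table for GRCm38.p6, and the 150 bases before the start listed there are shown 5′ to 3′ on the gene's strand. For Ptbp2 and Hnrnpdl the window lies inside the gene span given above, which ends at 119784466 and 100039664. Their letters are therefore upstream of the listed start but not of the annotated 5′ end of the gene. The Hnrnpc window reaches a few bases into its span. Capitals mark each match to the CCAAT box (CCAAT), the GC box (GGGCGG), the ETS motif (CCGGAAG), the NRF1 palindrome, the E-box (CACGTG) or the TATA box (TATAAA) on either strand, and overlapping matches are merged.
Hnrnpa1, chr15:103240247-103240396, plus strand: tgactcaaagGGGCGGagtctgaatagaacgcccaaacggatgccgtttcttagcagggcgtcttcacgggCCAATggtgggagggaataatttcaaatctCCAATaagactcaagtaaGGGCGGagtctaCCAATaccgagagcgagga
Hnrnpa2b1, chr6:51469895-51470044, minus strand: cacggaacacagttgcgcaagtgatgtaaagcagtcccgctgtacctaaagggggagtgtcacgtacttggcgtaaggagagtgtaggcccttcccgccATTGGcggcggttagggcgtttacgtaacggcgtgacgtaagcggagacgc
Hnrnpc, chr14:52104022-52104171, minus strand: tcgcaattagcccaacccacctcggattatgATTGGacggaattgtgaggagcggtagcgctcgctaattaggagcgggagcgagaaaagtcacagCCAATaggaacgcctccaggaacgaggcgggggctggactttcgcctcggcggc
Hnrnpdl, chr5:100039223-100039372, minus strand: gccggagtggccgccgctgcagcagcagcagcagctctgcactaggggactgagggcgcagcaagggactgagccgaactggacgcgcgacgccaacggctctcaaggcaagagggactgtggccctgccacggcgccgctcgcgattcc
Hnrnph1, chr11:50376840-50376989, plus strand: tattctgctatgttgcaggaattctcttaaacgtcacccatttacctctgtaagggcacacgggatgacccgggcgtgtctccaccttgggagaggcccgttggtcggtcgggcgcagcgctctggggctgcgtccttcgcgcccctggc
Mbnl2, chr14:120275519-120275668, plus strand: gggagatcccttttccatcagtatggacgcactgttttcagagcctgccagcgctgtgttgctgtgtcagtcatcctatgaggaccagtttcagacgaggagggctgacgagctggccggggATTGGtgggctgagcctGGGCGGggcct
Ptbp2, chr3:119783389-119783538, minus strand: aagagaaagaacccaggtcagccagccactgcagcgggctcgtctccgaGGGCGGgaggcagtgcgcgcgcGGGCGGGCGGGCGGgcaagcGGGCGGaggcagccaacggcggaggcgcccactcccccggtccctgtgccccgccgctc

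In these windows Hnrnpa1 had 3 CCAAT and 2 GC box matches, Hnrnpc 2 CCAAT matches, Hnrnpa2b1 1 CCAAT match, Mbnl2 1 CCAAT and 1 GC box match, Hnrnpdl and Hnrnph1 0 matches, and Ptbp2 5 GC box matches, of which 3 overlap. Over the 250 bases before the listed start, 19 of the 35 members held a CCAAT match (54.3%, against 34.5% of 27025 promoters) and 23 a GC box (65.7%, against 33.0%). In this longer window Hnrnph1 held both motifs and Hnrnpdl a GC box, outside the bases printed. The E-box was found in 5 (14.3%, against 6.04%), the ETS motif in 4 (11.4%, against 7.07%), the TATA box in 3 (8.57%, against 13.0%) and the NRF1 motif in 0 (against 0.777%). These are matches of letters only, and binding at these promoters was not measured.

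Regulators outside the hnRNP families were centred on no difference, with 8 of 16 below 0 and a median log2 fold change of -0.0035. TRA2 proteins are SR-like activators of GAA-rich exons. Tra2b, the sixth highest member per kilobase at 181 CPM per kb, had 478, 497 and 436 CPM in controls and 387, 372 and 424 CPM after siRNA, just below the controls in every library (log2 -0.25, SE 0.182, edgeR adjusted p = 0.581). Tra2a had 135, 122 and 186 CPM and then 132, 136 and 165 CPM, with overlapping groups.

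The muscleblind paralogs MBNL1 and MBNL2 switch exons from fetal to adult forms in muscle and brain and were both scarce in these embryos. Mbnl2 (chromosome 14, 120275669 to 120431697) had 1.6, 3.85 and 0.986 CPM in controls and 0.388, 0.401 and 0.272 CPM after siRNA. All siRNA libraries were below the lowest control, and the log2 fold change was -2.60 (SE 0.713, adjusted p by edgeR = 0.129, 0.00969 to 0.446 over the alternatives). Control 2 was highest, and without it the log2 fold change was -1.87. Mbnl1 had 5.21, 1.47 and 3.91 CPM and then 6.36, 5.73 and 6.05 CPM, above all controls (log2 0.78, SE 0.484, edgeR adjusted p = 0.52). Celf1, whose protein opposes MBNL proteins, had 40.6, 43.7 and 49.6 CPM and then 64.7, 48.0 and 62.5 CPM, with siRNA library 2 inside the control range. With total-count scaling the siRNA libraries all lay above the controls for Celf1.

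The STAR-family gene Qk, which encodes Quaking, had 154, 147 and 201 CPM in controls and 137, 106 and 114 CPM after siRNA, without overlap (log2 -0.49, SE 0.221, edgeR adjusted p = 0.343). Khdrbs1, which encodes SAM68, had 111 ± 14.3 and 94.9 ± 9.58 CPM. Rbfox2, a regulator that binds UGCAUG, and the epithelial regulator Esrp1 overlapped between groups, with 12.3 ± 5.18 and 13.8 ± 1.19 CPM for Rbfox2 and 20.7 ± 3.11 and 21.2 ± 2.92 CPM for Esrp1.

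The genes of the U-rich binding proteins TIA1, TIAL1 and ELAVL1 and the UG-binding protein TDP-43 also overlapped between groups with TMM scaling. With total-count scaling Tia1 and Elavl1 lay above all controls. Tial1 had 131, 122 and 317 CPM in controls and 210, 162 and 156 CPM after siRNA, with control 3 far above the rest. Tia1 had 3.24, 0.352 and 2.25 CPM and then 3.62, 3.44 and 3.10 CPM, with control 2 alone at a very low level. Elavl1 was at 128 ± 29.1 and 132 ± 16.1 CPM and Tardbp, the TDP-43 gene, at 228 ± 73.0 and 231 ± 18.5 CPM, of which 23.3% of exonic bases overlap Masp2.

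The RBM genes showed no separation between groups. Rbm5 was at 187 ± 59.2 and 193 ± 26.3 CPM and its X-linked paralog Rbm10 at 60.2 ± 23.0 and 47.2 ± 16.3 CPM. Rbm4 was at 8.37 ± 0.666 and 8.24 ± 1.51 CPM, but 60.5% of its exonic bases overlap Gm21992, and these genes cannot be told apart where they share exons.

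Fold changes differed between the highest and the lowest levels of the members. All 8 members with a mean of 300 CPM or more (Hnrnpa1, Hnrnpc, Hnrnpu, Hnrnpa2b1, Hnrnpk, Hnrnpf, Tra2b and Hnrnph1) were lower after siRNA without overlap with TMM scaling, and their median log2 fold change was -0.60. Abundant genes in general were lower too: of 588 genes tested at this level, 82.0% were below 0, 36.9% were lower without overlap, and the median was -0.38. With total-count scaling 6 of the 8 members were below 0, Hnrnpk and Tra2b being at 0.02 and 0.03, and Hnrnpa1, Hnrnpc and Hnrnph1 remained without overlap (17.9% of genes at this level).

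Among the 9 members under 30 CPM only 2 were below 0, with a median of 0.17, where 44.9% of the 14060 genes at this level were below 0 and the median was 0.12. The ranges between did not follow in order: the median was -0.21 for the 9 members from 30 to 100 CPM (all genes -0.07) and -0.09 for the 14 from 100 to 300 CPM (all genes -0.17). Over the 40 members the Spearman correlation of fold change with mean CPM was -0.54, and over all genes tested it was -0.17, whereas Pearson's correlation with the log2 of mean CPM was -0.23 and -0.16. These are descriptions across genes measured in the same 6 libraries, and the limits of 30 and 300 CPM were chosen after the values were seen. TMM factors, which differed between groups (0.810 to 1.05 in controls and 1.02 to 1.16 after siRNA), enter each fold change, and the part of library composition in this pattern was not tested.

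**Figure D3:**
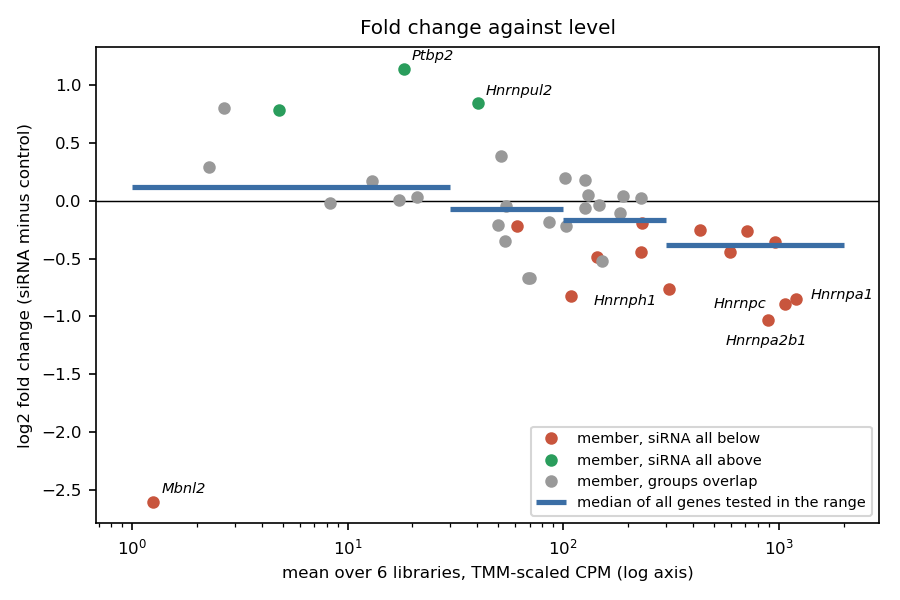
Log2 fold change (siRNA minus control) of each regulator against its mean TMM-scaled CPM on a log axis, with blue bars for the median of all genes tested in 4 ranges of level. Members at 300 CPM or more all lie below 0, with a median of -0.60 against -0.38 for all genes there.

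The members together took a smaller part of each library after siRNA. They held 0.955%, 0.953% and 0.917% of all counts in controls 1 to 3 and 0.830%, 0.780% and 0.880% in siRNA libraries 1 to 3, without overlap. The 6 members with the highest CPM made up 59.3% to 66.4% of these counts in controls and 53.1% to 58.4% after siRNA. Mitochondrial genes, which enter the total, took 9.79% to 16.0% of counts in controls and 13.2% to 17.5% after siRNA. Leaving out mitochondrial, rRNA and pseudogene entries the members' shares were 1.22%, 1.12% and 1.19% in controls and 1.04%, 1.04% and 1.09% after siRNA.

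Control libraries differed from each other more than siRNA libraries did for 30 of the 40 members, as they did for 4881 of the 6079 genes at 10 CPM or more. Their SD on the log2 scale had a median of 0.284 among controls and 0.187 among siRNA libraries, and over those 6079 genes it was 0.419 and 0.214. Control 2 was the lowest control for 18 members, against 13 for control 1 and 9 for control 3, and the highest was control 3 for 15, control 2 for 14 and control 1 for 11.

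Ratios of paralogs were taken within each library for 9 pairs, so the scaling between libraries enters only through the prior of 0.5 CPM added to each level. For Hnrnph2 over Hnrnph1 the log2 ratio of length-normalized levels was -2.68, -1.95 and -1.96 in controls and -1.68, -1.68 and -1.42 after siRNA, a difference of 0.60 toward Hnrnph2. For Pcbp2 over Pcbp1 it was -0.84, -0.82 and -0.95 and then -0.41, -0.0025 and -0.29, a difference of 0.64. For Mbnl2 over Mbnl1 it was -0.99, 1.59 and -1.12 and then -2.5, -2.34 and -2.63, a difference of -2.32. That difference was -1.43 without control 2 and -1.36 with a prior of 2 CPM in place of 0.5 CPM, since both genes are scarce.

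In these 3 pairs the groups did not overlap, and the exact two-sided permutation p was 0.1, the smallest that 3 libraries against 3 allow, with 0.3 after Benjamini-Hochberg adjustment over the 9 pairs. For Ptbp2 over Ptbp1 the ratio overlapped between groups, at -1.67, -3.59 and -2.44 in controls and -1.69, -1.62 and -2.13 after siRNA (exact permutation p = 0.3). In the other 5 pairs (Tra2a over Tra2b, Hnrnpll over Hnrnpl, Tial1 over Tia1, Hnrnpul2 over Hnrnpul1 and Rbm10 over Rbm5) the groups overlapped as well, with exact permutation p from 0.2 to 0.6.

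**Figure D4:**
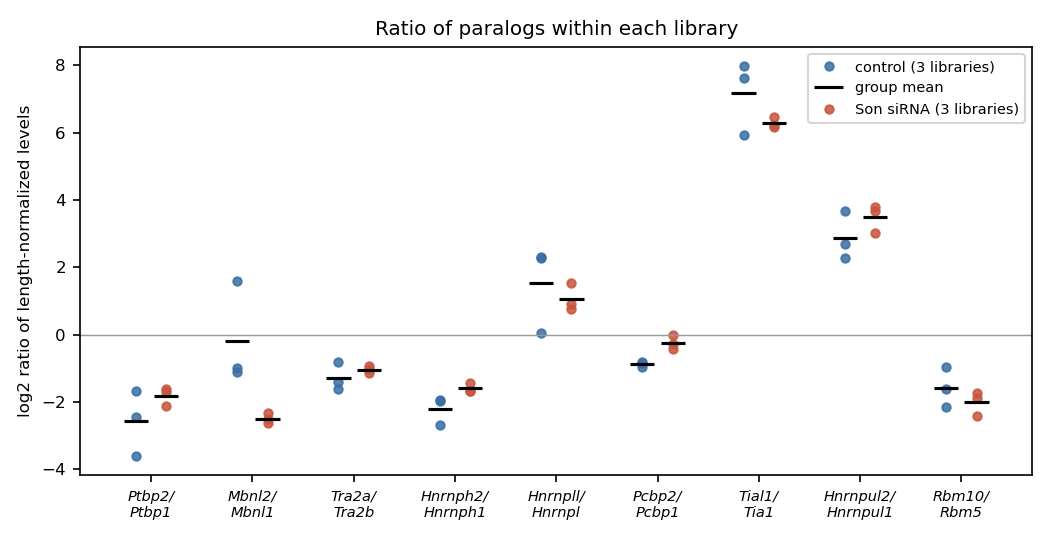
Log2 ratio of the length-normalized levels of 2 paralogs in each control (blue) and Son siRNA (red) library, with black bars for group means. The groups separate for Mbnl2/Mbnl1, Hnrnph2/Hnrnph1 and Pcbp2/Pcbp1, and overlap in the other 6 pairs.

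Other regulators of alternative splicing, from a list of 62 SR proteins, paralogs of the members and further RNA-binding proteins, gave 2 calls. Of 47 tested, Srsf3 and Esrp2 fell, 0 rose by edgeR's test, where 0.989% of all genes were called. At an unadjusted p under 0.05 there were 12 (25.5%, against 14.7% of all genes), 8 lower (17.0%, against 8.86%) and 4 higher (8.51%, against 5.88%). The median log2 fold change was -0.10, and 29 were below 0 (61.7%, against 48.7%). By family, 9 of 12 SR proteins, 6 of 14 paralogs and 14 of 21 other regulators were below 0.

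Esrp2, the paralog of Esrp1 and an activator of epithelial exons, had 24.0, 16.7 and 11.5 CPM in controls and 3.88, 4.47 and 2.91 CPM after siRNA (log2 -2.21, SE 0.385, edgeR adjusted p = 0.0403). Each siRNA library was far below the controls, whereas Esrp1 overlapped between groups as given above; the difference between these paralogs was not tested. Srsf3, an SR protein that also adapts mRNA for export, had 711, 484 and 497 CPM and then 155, 276 and 174 CPM (log2 -1.48, SE 0.280, edgeR adjusted p = 0.0494). Syncrip, also called hnRNP Q, had 937, 464 and 657 CPM and then 318, 334 and 324 CPM, without overlap but not past the threshold (log2 -1.08, SE 0.263, edgeR adjusted p = 0.0991). Khdrbs2, a paralog of SAM68, had 0 counts in the controls and 0.429, 0.444 and 0.340 CPM after siRNA (edgeR adjusted p = 0.092). Against a floor of 12 units per library, taken as 3 read pairs, Khdrbs2 was at least 3.41-fold higher. This bound depends on the floor chosen, and the scale of units per read pair is assumed. The call of Srsf3 was lost in 9 of the 15 alternatives and that of Esrp2 in 7, among them every fit without 1 siRNA library and the fit without control 1, and for Srsf3 also the fit without control 3. Without siRNA library 1, 2 or 3 edgeR's adjusted p was 0.306, 0.0892 and 0.314 for Srsf3 and 0.277, 0.138 and 0.288 for Esrp2. Without control 1 it was 0.109 and 0.0895, and without control 3 Srsf3 had 0.0741.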

How the data were processed

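Gene counts from 6 Smart-Seq2 libraries, a full-length cDNA protocol that does not keep strand, were used as deposited. HISAT2 2.0.5, StringTie 1.3.3b and GRCm38 are named in the submitters' processing notes. The deposited values are whole numbers read as estimated counts that the authors made per gene. Their scale against read pairs is not given in the sources used here: multiples of 4 made up 26.4% to 32.4% of values from 1 to 40 (25.0% by chance), and about 4 units were taken as 1 read pair. This excess is small, so the scale is an assumption. Of 46072 entries 45223 matched GENCODE vM21, and 0 were blank.

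Counts were filtered with filterByExpr, scaled by TMM and tested with edgeR 4.0.16 (R 4.3.3) by the quasi-likelihood test, with Benjamini-Hochberg adjustment and a threshold of 0.05 over 17788 genes. DESeq2 1.42.0 was the alternative test. On simulated data for this comparison 16686 genes were tested, and edgeR called 77 of the 100 with a 4-fold change and 98 of the 100 with an 8-fold change. Unchanged genes made up 7 of its 182 calls. The changed genes were drawn only from those above a minimum mean CPM, and changes under 4-fold were not simulated. The recovery of smaller changes, such as those of most members, is therefore not known. Levels per kilobase use the median length of a gene's protein-coding transcripts, and paralog ratios use a prior of 0.5 CPM. Shared sequence was counted in stretches of 100 bases.

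The alternatives were 9 other settings and leaving out each of the 6 libraries. Values in every library were given for Son, members at an unadjusted p under 0.05, the 6 highest per kilobase, both members of described pairs, and related regulators past the threshold or among the 4 smallest p. Values of other members were chosen after they were seen. The members and lists were chosen with earlier results of these data known.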

Additional observations from a re-analysis of the deposited data

How the results depend on the processing

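No member passed edgeR's adjusted threshold under any other setting, except Hnrnpa1 and Hnrnpa2b1 without control 2. Over all genes, 160 were called lower and 16 higher; total-count scaling gave 35 and 7, no filter 91 and 9, a stricter filter 245 and 43, counts divided by 4 gave 279 and 51, and DESeq2's Wald test 823 and 405. Total-count scaling gave 4 members higher at an unadjusted p under 0.05, 14 below 0, a median of 0.11 and 0 related regulators called. It gave 5 members lower and 6 higher without overlap, against 6.22% and 18.8% of all genes. Upper-quartile scaling gave 9 members lower without overlap and 1 related regulator called, and no filter gave 0 related regulators called. The shares over all genes are not given for the 4 and the 9, which therefore cannot be read as particular to the members. DESeq2 called 6 members lower and 1 higher, and 4 and 2 related regulators.

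The labels do not say that equal numbers pair the libraries. The numbers were therefore not taken as pairs. Deviations of same-numbered libraries from their group means had correlations of -0.29, -0.333 and 0.0536. Such deviations cancel within a group of 3 libraries, so these correlations cannot decide whether libraries were paired. Differently numbered libraries had correlations from -0.245 to 0.42, the highest for control 1 with siRNA library 2. Whether libraries shared a batch in another order was not tested. With the replicate block 0 genes were called lower, 0 higher and 0 related regulators, Son was -3.29 and not past the threshold, and Tial1 was 0.03.

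With 1 library left out, calls over all genes ranged from 0 to 231 lower and 0 to 84 higher, and were 0 without any 1 siRNA library. Members called lower ranged from 0 to 2 (DESeq2: 0 to 8 lower, 0 to 2 higher), and related regulators from 0 to 3. DESeq2 called 3.12% to 13.1% of all genes in these fits, and the fit without control 2, which gave the 8, called 13.1%. Members at an unadjusted p under 0.05 ranged from 6 to 11 lower and 1 to 3 higher, those below 0 from 24 to 32, and those without overlap from 14 to 19 lower and 4 to 7 higher. Fewer libraries separate more easily, so these counts without overlap cannot be set beside those from all libraries. The shares over all genes at an unadjusted p, below 0 and without overlap in these fits are not given. The median ranged from -0.20 to -0.13, Son from -3.50 to -3.12 and the difference in share from -0.14 to -0.09. Pair differences ranged from 0.36 to 0.72 (Hnrnph2/Hnrnph1), -2.79 to -1.43 (Mbnl2/Mbnl1), 0.52 to 0.72 (Pcbp2/Pcbp1), 0.25 to 1.2 (Ptbp2/Ptbp1), 0.07 to 0.47 (Tra2a/Tra2b), -1.23 to -0.10 (Hnrnpll/Hnrnpl), -1.52 to -0.50 (Tial1/Tia1), 0.32 to 1.01 (Hnrnpul2/Hnrnpul1) and -0.71 to -0.12 (Rbm10/Rbm5).

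The sign turned with total counts for Hnrnpa3 (0.10), Hnrnpab (0.10), Hnrnpr (0.07), Hnrnph2 (0.11), Hnrnph3 (0.23), Hnrnpk (0.02), Hnrnpm (0.22), Tra2a (0.29), Tra2b (0.03), Khdrbs1 (0.09), Tial1 (0.24) and Rbm4 (0.29), with upper quartiles for Rbm4 (0.0070), and without mitochondrial, rRNA and pseudogene entries for Hnrnpl (-0.02) and Tardbp (-0.0076). Leaving out 1 library turned Hnrnph3 (-0.18 to 0.05), Ptbp1 (-0.12 to 0.74), Hnrnpl (-0.11 to 0.18), Hnrnpm (-0.14 to 0.10), Tra2a (-0.15 to 0.17), Rbfox2 (-0.13 to 0.47), Esrp1 (-0.07 to 0.16), Tial1 (-0.35 to 0.47), Elavl1 (-0.08 to 0.25), Tardbp (-0.17 to 0.30), Rbm4 (-0.15 to 0.10) and Rbm5 (-0.15 to 0.31). The causes were not tested. The DESeq2 fits without 1 library and the ranges of level were added after seeing the data.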

Other observations

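Of the 62 related regulators 15 did not pass the filter on low counts and were not tested, among them Nova1, Nova2, Rbfox1, Rbfox3, Srrm4 and Elavl4, known from neurons, and Rbm20 and Rbm24, known from muscle. Their means over the 6 libraries were at or below 0.200 CPM.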
